A study of Mus musculus with 41 samples.

Results

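The AMPA receptor subunit genes Gria1, Gria2, Gria3 and Gria4 and the growth-cone gene Gap43 were followed across 41 mouse mammary tumors. These 5 genes were taken by symbol from the 47480 gene symbols of the deposited expression table. They were chosen by their values in these same tumors, since Gria2 and Gap43 stood high in PLK2null-732, PLK2null-733 and PLK2null-743, so levels in those tumors are given as a description without a test. The tumors comprised 28 Plk2-/-; p53-/- tumors and 13 p53-/- tumors, 1 library each, all untreated and all in the Balb/c background, so that both groups lack p53. A tumor is named here by genotype and number, as PLK2null-732 or p53null-T11. Per the study's methods, the Plk2-/-; p53-/- tumors arose from mammary epithelial cells placed in cleared fat pads of wild-type hosts, and per the labels the bulk tumors had been passed serially between syngeneic mice, so each library also holds host stroma and vessels. The labels do not say which tumors descend from the same outgrowth, and p-values below measure the spread between these tumors only. The study placed the tumor lines of PLK2null-743 and p53null-T11 among its claudin-low models, a subtype with low claudin and epithelial gene expression.

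AMPA receptors are tetrameric glutamate-gated cation channels that carry most fast excitatory transmission in the brain. The 4 pore-forming subunits GluA1 to GluA4 are encoded by Gria1 to Gria4. GluA2, once its transcript has been edited by the adenosine deaminase encoded by Adarb1, makes the channel nearly impermeable to calcium. The REST repressor, which binds the RE1 element, keeps many neuronal genes silent outside the nervous system, and Gria2 is one of its known targets. Gap43 encodes a palmitoylated protein of the growth cone and the presynaptic membrane, a substrate of protein kinase C that binds calmodulin. In neurons, Plk2 protein lowers synaptic strength and acts on AMPA receptor traffic through NSF and GluA2, which is the link between these genes and the locus deleted in 28 of the tumors. In mammary tissue none of the 5 genes has a settled role.

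On GRCm38 the 5 genes lie apart. Gria1 spans chromosome 11 from 57011387 to 57330244 on the plus strand. Gria2 spans chromosome 3 from 80681450 to 80802835 on the minus strand. Gria3 spans chromosome X from 41400854 to 41678601 on the plus strand. Gria4 spans chromosome 9 from 4417896 to 4796234 on the minus strand. Gap43 spans chromosome 16 from 42248442 to 42340651 on the minus strand. RefSeq promoter sequences (GRCm38.p6) were matched for Gria2 and Gria4 among the members. They are shown with that of Grin2c, an NMDA receptor subunit gene that stood high in the same tumors as Gria2, because the text of these windows bears on how alike genes with like levels are. Each is the 250 bases before the annotated transcript start, 5′ to 3′ on the gene's strand, at chr3:80802836-80803085 for Gria2, chr11:115267244-115267493 for Grin2c and chr9:4796235-4796484 for Gria4, all on the minus strand. Capitals mark matches, on either strand, to the RE1 core, which is AGCACC, any 2 bases and GGACAG, and to the GC box GGGCGG.
Gria2: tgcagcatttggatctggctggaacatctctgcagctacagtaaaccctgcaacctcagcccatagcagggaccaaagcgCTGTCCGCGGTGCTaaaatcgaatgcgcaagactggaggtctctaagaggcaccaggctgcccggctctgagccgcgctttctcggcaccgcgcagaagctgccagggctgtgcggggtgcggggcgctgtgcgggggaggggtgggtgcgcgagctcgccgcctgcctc
Grin2c: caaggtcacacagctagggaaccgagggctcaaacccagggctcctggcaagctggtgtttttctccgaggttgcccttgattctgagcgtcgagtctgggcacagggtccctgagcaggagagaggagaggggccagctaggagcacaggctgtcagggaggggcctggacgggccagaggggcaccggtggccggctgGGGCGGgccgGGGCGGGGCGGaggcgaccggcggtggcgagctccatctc
Gria4: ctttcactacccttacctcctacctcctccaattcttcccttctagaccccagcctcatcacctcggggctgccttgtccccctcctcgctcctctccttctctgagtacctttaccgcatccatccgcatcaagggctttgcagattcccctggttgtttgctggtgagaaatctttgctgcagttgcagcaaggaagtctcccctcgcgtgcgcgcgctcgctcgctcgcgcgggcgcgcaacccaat

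The Gria2 window holds 1 RE1 core, read on the opposite strand as CTGTCCGCGGTGCT, from 170 to 157 bases before the start. Of 32851 promoter windows of the same length, 15 hold that core (0.0457%). The Grin2c window holds 3 GC boxes, with the second and the third overlapping, and no RE1 core. The Gria4 window holds neither motif, and 32.7% of all windows hold a GC box. G and C made up 64.8% of the Gria2 window, 68.8% of the Grin2c window and 58.8% of the Gria4 window. These are matches of letters, and whether any factor binds there was not measured.

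Values are estimated counts divided by the upper quartile of the tumor, set by the authors to 1000 at that quartile of nonzero genes. The libraries held an estimated 29409526 to 70868089 fragments on genes, with a median of 39053795 in the Plk2-/-; p53-/- tumors and 58042747 in the p53-/- tumors. A single read was worth 0.388 to 0.817 in these units, and 3 reads, taken as the detection floor, 1.16 to 2.45, a limit that covers counting error only. Plk2 itself lay between 36.6 and 553 in the 28 Plk2-/-; p53-/- tumors and between 186 and 8028 in the 13 p53-/- tumors, where the library labelled p53null-7435 was the lowest and fell within the range of the other genotype. All 13 p53-/- titles carry a numbered series name that the other titles lack, so library series and genotype cannot be told apart. No pair among the 5 named tumors behaved as 1 library sequenced repeatedly. The closest of them, PLK2null-732 and PLK2null-733, differed by a chi-square whose median over genes was 4.39. On that measure PLK2null-743 differed from PLK2null-732 by 6.05 and from PLK2null-733 by 6.74. The lowest value among all pairs of tumors was 3.9, for PLK2null-1984 and PLK2null-7750. PLK2null-7763 differed from PLK2null-732, PLK2null-733 and PLK2null-743 by 31.5 to 36.2. Whether PLK2null-732, PLK2null-733 and PLK2null-743 share an outgrowth was not tested, and they are not taken as replicates.

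The tissue label was checked first, because the tumors with high Gria2 stood apart. PLK2null-732, PLK2null-733 and PLK2null-743 had almost none of the epithelial transcripts that define mammary tumors. Their summed value of Epcam, Krt8, Krt18, Cdh1, Cldn3 and Cldn7 was 45.7 to 291, against 34899 to 119162 in the other 24 Plk2-/-; p53-/- tumors, and 13539 in PLK2null-7763. The summed blood endothelial markers (Pecam1, Cdh5, Kdr, Tie1, Esam and Emcn) reached 165585 to 186496 in the 3 tumors and 78025 in PLK2null-7763, against 2572 to 7743 in the other 24. The summed lymphatic endothelial markers were 87846 to 152808 in the 3, 62630 in PLK2null-7763 and 529.7 to 4851 in the 24, and pericyte markers were also high, at 88851 to 105609 in the 3 against 3418 to 14555. p53null-T11 had 6876 for blood endothelium, within the 2041 to 16463 of the other 12 p53-/- tumors, and had low Epcam at 81.4 and Cldn3 at 19.9 but Krt18 at 22508. In bulk tumors a larger number of cells of a type and more RNA per cell cannot be told apart.

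Gria2 was present in 4 tumors and near the floor in the other 37. Its value was 1858 in PLK2null-732, 3582 in PLK2null-733, 1577 in PLK2null-743 and 898 in PLK2null-7763. The next tumor, PLK2null-7764, had 8.93, and the next after it, PLK2null-7747, had 5.63. Of the 37 tumors, 19 were at 0 and 29 were at or below the floor of 3 reads, and p53null-T11 had 1.30. The lowest of the 4 was thus 100-fold above the highest of the 37, and no tumor lay between.

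Gap43 shared this pattern in part. Its value was 6478 in PLK2null-732, 5666 in PLK2null-733 and 5364 in PLK2null-743. PLK2null-7763 had 1460.0, less than PLK2null-1974 with 1555, and p53null-T11 had 517. The other 35 tumors lay at or below 45.9, the value of PLK2null-1973. Gap43 was therefore present in 2 tumors, PLK2null-1974 and p53null-T11, that had Gria2 at 0 and 1.30.

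Gria1, which encodes GluA1, was high in p53null-T11 alone, at 1052. It was 0.716 in PLK2null-732, 0.599 in PLK2null-733, 2.82 in PLK2null-743 and 6.03 in PLK2null-7763. The highest of the other 36 tumors was PLK2null-1973 with 19.2, and their median was 1.43. T11 was thus the highest of the 13 p53-/- tumors for Gria1, as it was for 12.6% of the 16666 genes tested in them.

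Gria3, which encodes GluA3, was the subunit gene found in every tumor. It ran from 12.1 to 916 with a median of 82.4, and no tumor was at or below the floor. PLK2null-732 had 30.8, PLK2null-733 had 16.2 and PLK2null-743 had 82.4, all within the range of the other 25 Plk2-/-; p53-/- tumors (14.7 to 595). PLK2null-7763 was the highest of its genotype at 595, p53null-10152 was the highest of all at 916, and p53null-T11 had 28.6.

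Gria4, which encodes GluA4, was high in a different set. PLK2null-1964 had 4138 and PLK2null-7747 had 3096, followed by PLK2null-1965 with 480.4, p53null-2331L with 335, PLK2null-7763 with 304 and PLK2null-1963 with 231. The median of the 41 tumors was 18.8, and 5 tumors were at or below the floor, p53null-T11 among them with 0.866. PLK2null-732, PLK2null-733 and PLK2null-743 had 39.4, 33.6 and 27.1, and 9 of the other 25 Plk2-/-; p53-/- tumors were at or above the lowest of these.

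**Figure D1:**
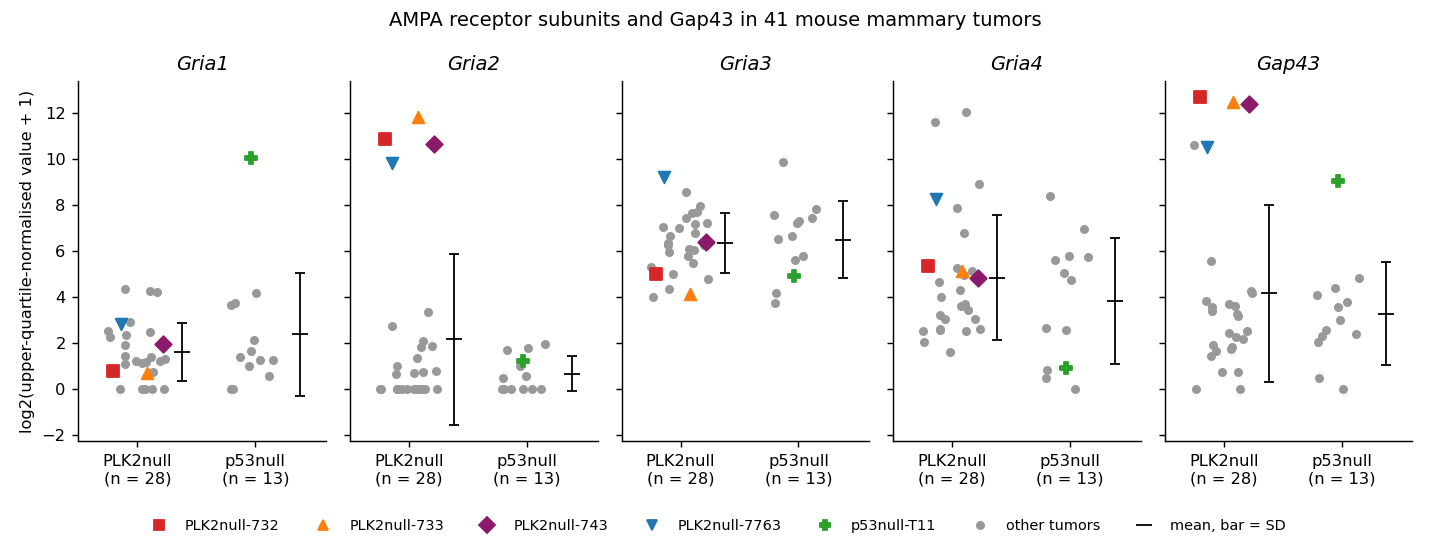
Log2 of the upper-quartile-normalised value plus 1 of each member gene, 1 point a tumor, by genotype (28 PLK2null and 13 p53null), with the 5 named tumors in color and the mean and SD of each genotype in black. Gria2 separates 4 PLK2null tumors from the other 37, Gap43 is high in 6 tumors, Gria1 is high in p53null-T11 alone, and Gria4 is highest in 2 PLK2null tumors that are not among the named 5.

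The tumors thus differed in which AMPA receptor subunit transcript prevailed. Levels of different genes were set side by side per kb of annotated exon, and the share of each of the 4 subunits in their summed value per kb was taken. Gria3 held the largest share in 30 of 41 tumors, Gria4 in 7, Gria2 in 3 and Gria1 in 1. Gria2 made up 92.6% in PLK2null-732, 97.0% in PLK2null-733 and 88.5% in PLK2null-743, and at most 1.84% in each of the other 24 Plk2-/-; p53-/- tumors. PLK2null-7763 was mixed, with 34.5% Gria2, 36.1% Gria3 and 28.8% Gria4. Gria1 made up 98.2% in p53null-T11, and Gria4 made up 98.3% in PLK2null-1964 and 97.3% in PLK2null-7747. With the mean transcript length in place of the union of exons, Gria2 rather than Gria3 had the largest share in PLK2null-7763, and the tumors led by Gria4 fell from 7 to 5. The summed value per kb was 129, 237 and 115 in PLK2null-732, PLK2null-733 and PLK2null-743, 167 in PLK2null-7763 and 177 in p53null-T11. In the other 24 Plk2-/-; p53-/- tumors it had a median of 11.9 and a range of 2.59 to 668, with PLK2null-1964 at the top. Per kb, Gap43 exceeded Gria2 in all 4 tumors that had both, with 4253 against 119.5 in PLK2null-732 and 959 against 57.7 in PLK2null-7763.

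**Figure D2:**
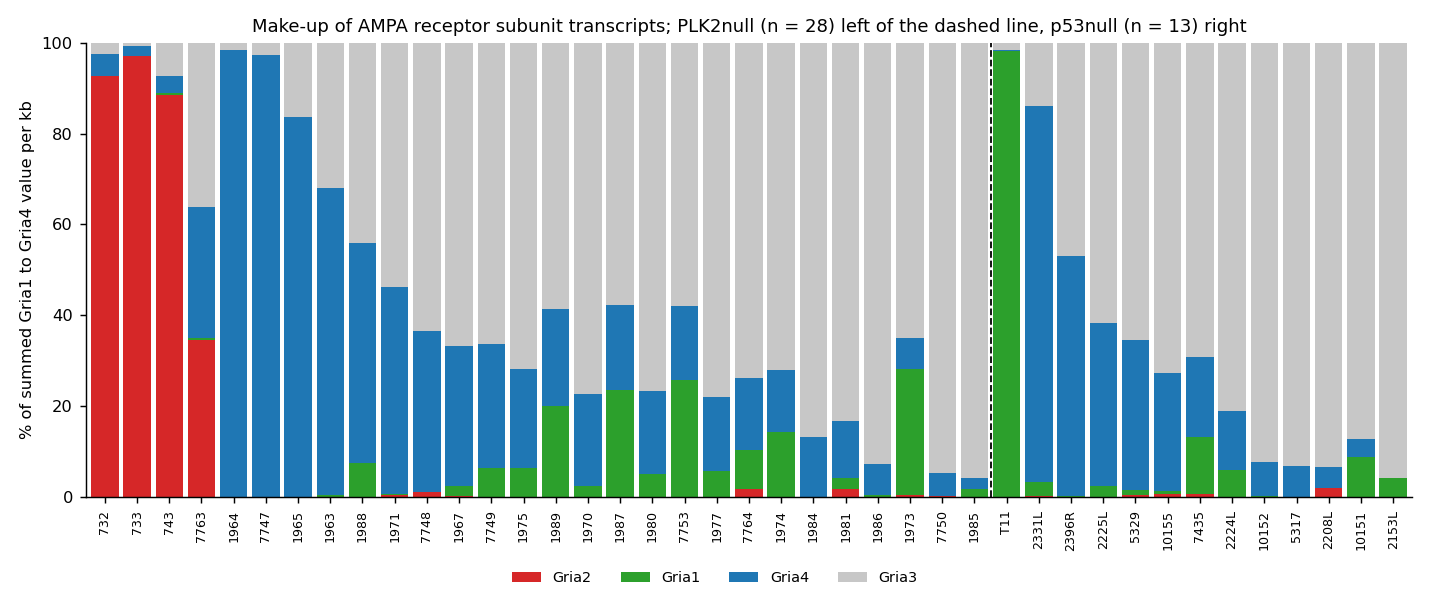
Share of each subunit gene in the summed Gria1 to Gria4 value per kb of exon (%), 1 bar a tumor, PLK2null tumors (n = 28) left of the dashed line and p53null tumors (n = 13) right of it. Gria2 fills most of the bars of PLK2null-732, PLK2null-733 and PLK2null-743, Gria1 that of T11 and Gria4 those of PLK2null-1964 and PLK2null-7747, while Gria3 is the largest share in 30 tumors.

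For Gria2 and Gap43, PLK2null-732, PLK2null-733 and PLK2null-743 lay above all other 25 Plk2-/-; p53-/- tumors, as they did for 11.1% of the 17153 genes tested in these tumors, and below all 25 for no member (8.87% of genes). These are the values that drew the genes out and are no test. On the log2(value + 1) scale, which understates the change of low genes, the 3 tumors exceeded the other 25 by 10.03 for Gria2 (SD of the 25, 2.06) and by 9.36 for Gap43 (SD of the 25, 2.61), the fourth and the fifth largest differences of the 17153 genes. The differences were 0.29 for Gria4 and -1.31 for Gria3, while Gria1 fell under the minimum mean value of 10 in these 28 tumors. Together with PLK2null-7763, the 3 tumors were above the other 37 for Gria2, as for 4.29% of genes, but not for Gap43, since PLK2null-1974 exceeded PLK2null-7763. PLK2null-1964 and PLK2null-7747 were both above the other 26 Plk2-/-; p53-/- tumors for Gria4, as they were for 2.61% of the genes.

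Between the genotypes, which the deletion of Plk2 separates, no member passed the test. Gria2 and Gap43 were chosen by their values in PLK2null-732, PLK2null-733 and PLK2null-743, which also enter this fit. Their p-values are not independent of that choice, so nothing is read from the lack of a call. With limma across 17208 genes, 0 of 5 members had an adjusted p under 0.05, against 39.5% of all genes tested at that threshold. Of the genes called, 24.3% of all tested were higher and 15.3% lower in the Plk2-/-; p53-/- tumors, 4175 against 2627, and rescaling by TMM factors, which moved the median difference of all genes from 0.10 to -0.07, turned this to 3068 higher and 3869 lower. Plk2 was lower by a log2 difference of -3.39 (SE 0.377, adjusted p = 1.30e-09).

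Gria2 averaged 284 ± 801 (SD, n = 28) with Plk2 deleted and 0.808 ± 1.03 (SD, n = 13) in p53-/- tumors, a log2 difference of 1.48 (SE 1.02, limma adjusted p = 0.256). The mean of the first group came from 4 of its 28 tumors, and the medians were 0.569 and 0.390. Gap43 averaged 739 ± 1847 and 48.2 ± 141, a log2 difference of 0.89 (SE 1.12, limma adjusted p = 0.559). Without PLK2null-732, PLK2null-733 and PLK2null-743 the Gap43 difference turned to -0.11, and without PLK2null-7763 as well to -0.42. Gria4 averaged 311 ± 951 and 52.3 ± 91.9, a log2 difference of 1.02 (SE 0.891, limma adjusted p = 0.382), which became 0.48 without PLK2null-1964 and PLK2null-7747.

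Gria1 averaged 3.66 ± 5.40 and 84.9 ± 291, a log2 difference of -0.78 (SE 0.599, limma adjusted p = 0.315), and without p53null-T11 its mean fell under 10 and it was not tested. Gria3 averaged 118 ± 124 and 165 ± 236, a log2 difference of -0.16 (SE 0.469, limma adjusted p = 0.822). All 5 members passed the filter on low values, Gria1 through T11 and Gria2 through the 4 tumors named above. Permutation tests of the same differences (2-sided, 100000 resamples, 28 against 13) gave p = 0.2491 for Gria1, 0.1824 for Gria2, 0.7455 for Gria3, 0.2714 for Gria4 and 0.4518 for Gap43. In every member the ranges of the genotypes overlapped, as they did for Plk2 itself, so nothing is read from the overlap.

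Gria2 and Gap43 were both high in the 4 tumors with the most endothelial transcripts. Pecam1, an adhesion molecule of endothelial cells, was 46193 in PLK2null-732, 41641 in PLK2null-733, 34792 in PLK2null-743 and 22792 in PLK2null-7763, and 500 to 4114 in the other 37. Per 1000 of Pecam1, Gria2 was 40.2, 86.0, 45.3 and 39.4 in these tumors, and at most 5.83 in the other 36, T11 having 0.671. Gria2 was thus higher in the 4 tumors relative to Pecam1 as well, by a smaller factor than in the values themselves. Gap43 per 1000 of Pecam1 was 140, 136, 154 and 64.1 in the same 4 tumors, 267 in p53null-T11, 1927 in PLK2null-1974, and at most 26.2 in the other 35. Gap43 in PLK2null-1974 thus stood without high Pecam1, which was within the range of the other tumors there. All 6 blood endothelial markers, 4 of 6 lymphatic markers (Prox1, Mmrn1, Flt4 and Ccl21a) and all 6 pericyte markers had PLK2null-732, PLK2null-733 and PLK2null-743 above the other 25, against 11.1% of genes. Of the other lymphatic markers, Lyve1 was 1084, 386 and 6799 in the 3 tumors against at most 134 in the other 24, and Pdpn ran the other way, at 182, 37.2 and 186 against a median of 733.4 in the 24.

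**Figure D3:**
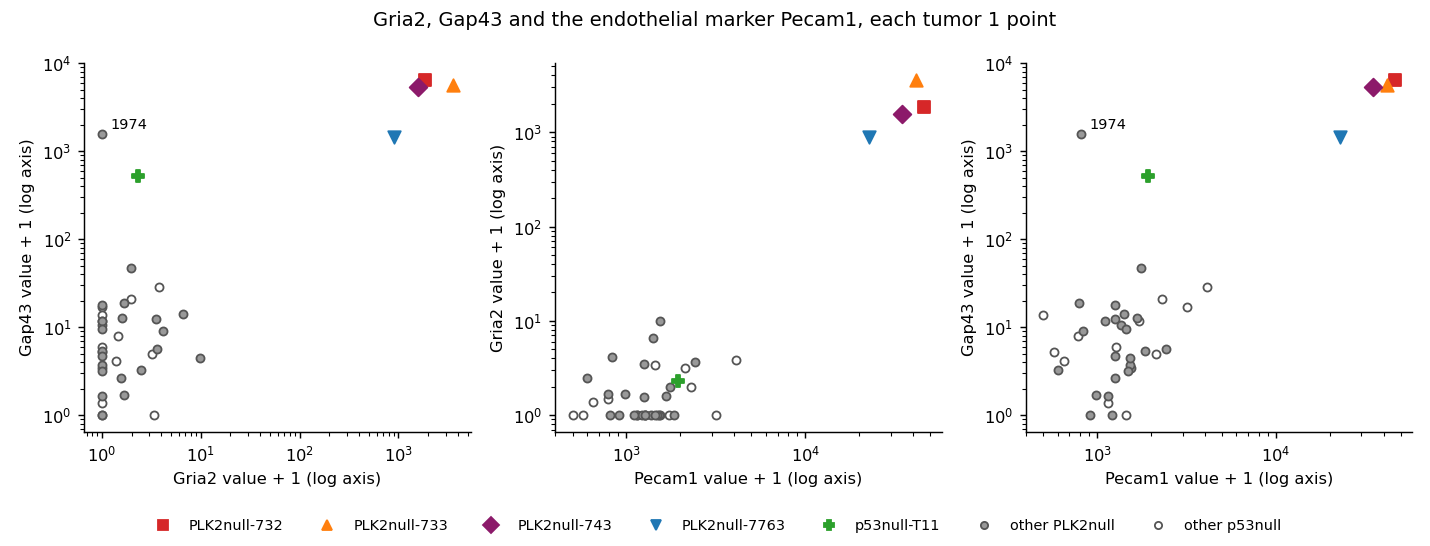
Values plus 1 on log axes, 1 point a tumor, for Gap43 against Gria2 (left), Gria2 against Pecam1 (middle) and Gap43 against Pecam1 (right). The 4 named PLK2null tumors lie at the upper right of each panel, apart from the others, and PLK2null-1974 and p53null-T11 have high Gap43 (1555 and 517) with Gria2 near 0.

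Single markers of neurons and nerve ran in both directions in the tumors with high Gria2. Of 10 neuronal markers, 8 were tested between genotypes with 0 passing, beside 39.5% of all genes. The summed value in PLK2null-732, PLK2null-733 and PLK2null-743 was 654 to 1038, and 3886 in PLK2null-7763. It overlapped the 896 to 5553 of the other 24 Plk2-/-; p53-/- tumors. Map2, a dendritic protein gene with a median of 2430.4 in the 24, made up most of their sum and was 198 to 454 in the 3 tumors. Among these markers Snap25, a synaptic fusion protein, was at 0 in all 3 tumors, as was its median in the 24. Tubb3 was 1.80 to 5.01 against a median of 29.0 in the 24, and Rbfox3 at 114 to 232 overlapped the others. The neurofilament gene Nefm was 109, 42.2 and 47.0 in PLK2null-732, PLK2null-733 and PLK2null-743 against at most 11.5 in the other 24, and Elavl4, a neuronal RNA-binding protein gene, was 17.9, 19.2 and 15.8 against at most 0.753. Nefl, another neurofilament gene, was 399, 145 and 114 against a median of 4.09 in the 24, within their range. In p53null-T11 the neuronal sum was 7425, above the highest of the other 12 (2717), with Nefl at 4755 and Nefm at 1933. Summed Schwann cell and nerve markers were 3725 to 5114 in the 3 tumors, against 9610 to 47532 in the 24. Of these, Foxd3 and Gfra3 were at or below the floor in the 4 tumors with Gria2, and their medians in the 24 were 0.587 and 0. Sox10, a factor of neural crest and mammary epithelium, was 7.34 to 78.8 in the 3 tumors against 6300 to 39196. Mbp, a myelin protein gene, was 3432, 3822 and 4586 in the 3 tumors against a median of 687 and a maximum of 3537 in the 24, and Ngfr, a neurotrophin receptor gene, was 75.9 to 409 against a median of 21.3. Between genotypes, 4 of 6 skeletal muscle markers were lower in the Plk2-/-; p53-/- tumors, beside 15.3% of all genes. The 6 markers summed to 33.8 to 46.5 in the 3 tumors and 41.2 in T11. Myh4 and Myh1 were at 0 in the 3 and had medians of 0.694 and 1.44 in the 24. Fibroblast markers overlapped the other tumors, at 14888 to 56137. The part of these cell types in the levels of the members was not tested.

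Genes for proteins that travel with AMPA receptors ran in both directions in the tumors with Gria2. Of 14 auxiliary subunit genes all were in the table and 7 were tested between genotypes. Of these, 1 was higher and 1 lower in the Plk2-/-; p53-/- tumors, beside 24.3% and 15.3% of all genes. None of 7 tested had PLK2null-732, PLK2null-733 and PLK2null-743 apart from the other 25, which include PLK2null-7763. The shares over all genes were 11.1% above and 8.87% below. Cpt1c, which encodes an auxiliary protein of the endoplasmic reticulum, was 698, 639 and 809 in these tumors and 691 in PLK2null-7763, against at most 634 among the other 24 and 423 among the p53-/- libraries, so that the 4 tumors with Gria2 were above the other 37, as for 4.29% of genes. The median difference of the list between the 3 and the 25 tumors was -0.16, beside 0.02 over all genes. Cacng7, a type II TARP, was the higher one, at 183 against 75.1 on average (log2 difference 1.29, limma adjusted p = 0.0171). Cnih3, a cornichon that slows channel closing, was the lower one, at 13.3 against 25.2 (log2 difference -1.26, limma adjusted p = 0.0347). The TARP gene Cacng4 was 760.4, 574 and 282 in PLK2null-732, PLK2null-733 and PLK2null-743 and 274 in PLK2null-7763. Others of the genotype reached 380.2 and p53-/- tumors 424. Cnih2, another cornichon, was lower, at 28.6, 28.8 and 45.7 in the 3 tumors against a median of 214 in the 24, with 341 in PLK2null-7763. Shisa7 was 0.716, 3.60 and 0 in the 3, against a median of 70.1, and both genes overlapped the 24. The stargazin gene Cacng2 was at most 1.05 in the 41 tumors, under the lowest floor of 1.16. Shisa6, another auxiliary protein, was 279 in p53null-T11 and at most 23.2 in the other 12 p53-/- tumors, in the tumor that also had high Gria1.

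Of 14 scaffold and traffic genes, 13 were tested between genotypes and 5 were higher in the Plk2-/-; p53-/- tumors (Gripap1, Dlg1, Dlg4, Epb41l1 and Prkca) and none lower, beside 24.3% and 15.3% of all genes. After rescaling by TMM factors, Gripap1 alone of these passed and Dlg2 was called lower (limma adjusted p = 0.0317). In PLK2null-732, PLK2null-733 and PLK2null-743, 3 of the 13 stood above the other 25 (Nsf, Gripap1 and Sdcbp) and 2 below (Dlg3 and Pick1), and Gripap1 overlapped after the same rescaling. Over all genes 11.1% stood above and 8.87% below. The median difference was 0.78, beside 0.02 over all genes. Sdcbp, the syntenin scaffold, was 18900 in PLK2null-732, 20916 in PLK2null-733 and 18319 in PLK2null-743, against 3664 to 10113 in the other 24. Dlg3, a membrane-associated guanylate kinase of the synapse, was 169.7, 212 and 230.4 there, against 982 to 2155. Pick1, which binds the GluA2 tail and draws it from the surface, was 801, 900 and 781, against 1048 to 2836. Prkca, protein kinase C alpha, averaged 1621 against 829 between genotypes (log2 difference 0.95, limma adjusted p = 0.0363). Adarb1, the GluA2 editing enzyme, was 1223, 1478 and 1794 in PLK2null-732, PLK2null-733 and PLK2null-743, 1008 in PLK2null-7763 and 2786 in p53null-T11, where Gria2 was 1.30. The other 24 Plk2-/-; p53-/- tumors had Adarb1 at 257 to 1410.

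Among the other glutamate receptors, Grin2c was high in the tumors that were high in Gria2. Grin2c, an NMDA receptor subunit of cerebellar granule cells and glia, was 1848 in PLK2null-732, 2315 in PLK2null-733 and 1929 in PLK2null-743. It was 393 in PLK2null-7763 and at most 26.8 in the other 37 tumors. Per 1000 of Pecam1 it was 40.0, 55.6, 55.4 and 17.2 in the 4 tumors, PLK2null-7763 being below PLK2null-1971 with 21.4. Grin1, the obligatory NMDA receptor subunit, went the other way, at 2.86, 1.20 and 0.565 in the 3 tumors, 11.8 in PLK2null-7763, and 3.72 to 99.1 in the other 24. Of 7 NMDA receptor genes, 4 were tested and 0 passed between genotypes, beside 39.5% of all genes. Of 4 tested in the 28 tumors Grin2c was above and Grin1 below, beside 11.1% and 8.87% of all genes. Of 9 kainate and delta receptor genes, 5 were tested, and 1 was higher in the Plk2-/-; p53-/- tumors and none lower, beside 24.3% and 15.3% of all genes. The higher one was Grik2, at 26.5 against 7.54 (log2 difference 1.86, limma adjusted p = 0.0107). Grik5 was called lower after rescaling by TMM factors (limma adjusted p = 0.0242). None of 4 had PLK2null-732, PLK2null-733 and PLK2null-743 apart from the rest as deposited, beside 11.1% of all genes above and 8.87% below. Neto2 stood below after the same rescaling. Of 8 metabotropic receptor genes Grm4 alone had enough signal to be tested, and it did not pass.

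**Figure D4:**
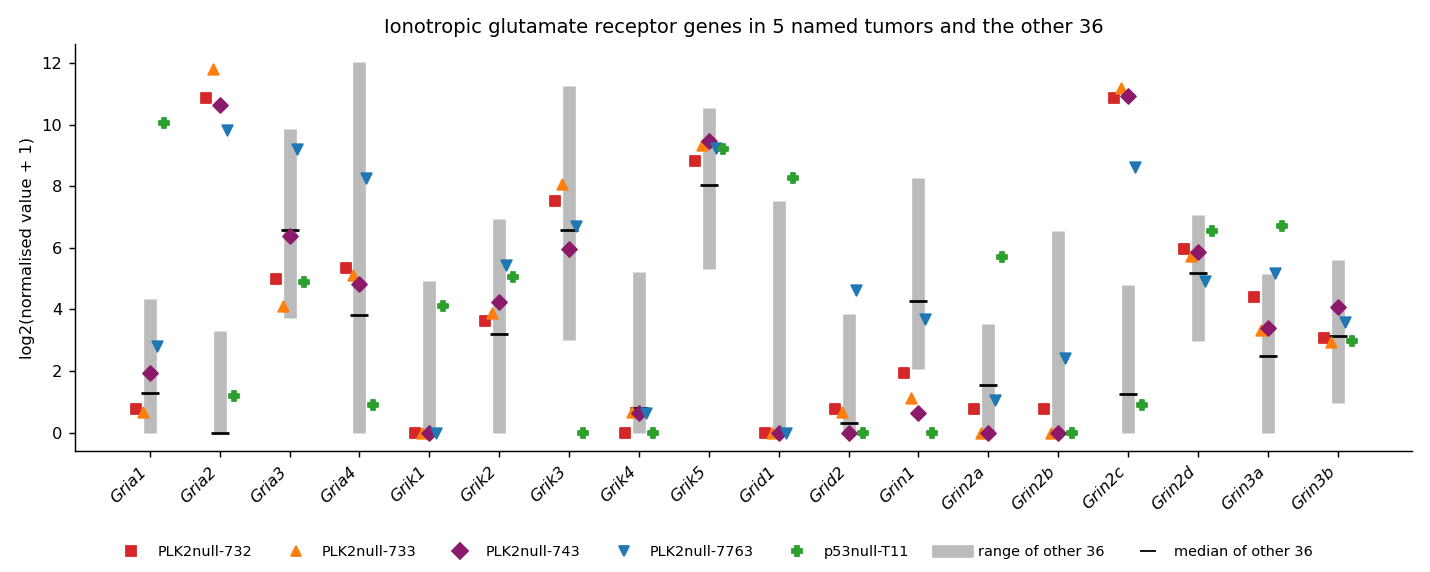
Log2 of the normalised value plus 1 of the 18 ionotropic glutamate receptor genes, with the 5 named tumors as colored symbols and the range (grey) and median (black) of the other 36 tumors. Gria2 and Grin2c in PLK2null-732, PLK2null-733, PLK2null-743 and PLK2null-7763 lie above the grey range, Gria1 in T11 lies above it, and Grin1 in PLK2null-732, PLK2null-733 and PLK2null-743 lies below it.

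Of 9 glutamate transporter genes, 5 were tested and 1 was higher in the Plk2-/-; p53-/- tumors and none lower, beside 24.3% and 15.3% of all genes. The higher one was Slc1a2, which clears glutamate from the synapse, at 331 against 59.6 (log2 difference 2.64, limma adjusted p = 3.21e-05). Within the Plk2-/-; p53-/- tumors it was nonetheless lowest in the 3 with the most Gria2, at 40.8, 43.1 and 16.9, against 79.4 to 1564 in the other 24. Slc1a3, the glial glutamate transporter, was 18048 in PLK2null-7763 and at most 4958 in the other 24 and 309 in the 3.

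The relatives and partners of Gap43 divided. Of 14 genes, 12 were tested between genotypes. L1cam was higher and Pcp4 lower in the Plk2-/-; p53-/- tumors, beside 24.3% and 15.3% of all genes. After rescaling by TMM factors L1cam was no longer called and 1 further gene of the list was called lower. Pcp4, a small calmodulin-binding protein, averaged 25.1 against 530.2 (log2 difference -2.57, limma adjusted p = 0.0274), and its highest value, 4001, was in p53null-2331L. In PLK2null-732, PLK2null-733 and PLK2null-743, 4 of 13 tested stood above the other 25 (Marcks, Marcksl1 and Nrgn among them) and 2 below (Ncam1 and Stmn4). Over all genes 11.1% stood above and 8.87% below. The median difference of the list was 0.02, equal to that of all genes. Nrgn, neurogranin, the postsynaptic kin of Gap43 with the same calmodulin-binding motif, was 339, 346 and 282 in the 3 tumors, 146 in PLK2null-7763 and 3.72 to 50.3 in the other 24. Ncam1, a neural adhesion molecule, was 11.5, 5.39 and 52.0, against 78.3 to 1928. Stmn4, a stathmin, was at most 0.716 in the 3, against 1.51 to 80.4, so that its separation lay near the floor (1.16 to 2.45 by tumor). Stmn2, a growth-cone stathmin, was 10075 in p53null-T11, the highest of the 41 tumors, and at most 5.08 in the 3.

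Of 9 genes tied to the synaptic work of Plk2, all were tested between genotypes. In the Plk2-/-; p53-/- tumors 2 were higher and none lower, beside 24.3% and 15.3% of all genes. Sipa1l1, the SPAR protein that Plk2 marks for destruction, was higher by a log2 difference of 0.42 (limma adjusted p = 0.0112) but not after rescaling by TMM factors, when Cdk5 was called lower (limma adjusted p = 0.0403). In PLK2null-732, PLK2null-733 and PLK2null-743, 4 of 9 stood above the other 25 (Rap2a, Rapgef2 and Nsf among them) and none below. Over all genes 11.1% stood above and 8.87% below. The median difference of the 9 was 0.42, beside 0.02 over all genes. Rap2a, a small GTPase, was 5444 in PLK2null-732, 5567 in PLK2null-733 and 5546 in PLK2null-743, against 696 to 1842. Rapgef2, an exchange factor for Rap GTPases, was 1984.7, 2258 and 2065, against 427 to 1150.2.

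Rest, whose product binds RE1 elements, was present in all 41 tumors, at 948 to 3032, with or without Gria2. It was 2044 in PLK2null-732, 2096 in PLK2null-733, 1822 in PLK2null-743 and 1617 in PLK2null-7763, within the 1150.1 to 3032 of the other 24 Plk2-/-; p53-/- tumors. Between genotypes Rest was higher by 0.37 (limma adjusted p = 0.0116) and Sin3a by 0.24 (limma adjusted p = 0.0219), and neither passed after rescaling by TMM factors, when Hdac2 was called lower (limma adjusted p = 0.0499). Of 7 genes of the REST complex, Kdm1a alone stood above the other 25 in PLK2null-732, PLK2null-733 and PLK2null-743, beside 11.1% of all genes. Kdm1a, a histone demethylase, was 4418, 4427 and 4455 there, and Hdac2 stood below after the rescaling. Of the 14 genes whose promoter window holds the RE1 core printed above, 7 were tested in the 28 tumors, and 1 had PLK2null-732, PLK2null-733 and PLK2null-743 above the other 25, against 11.1% of all genes. That gene was Gria2, which was chosen for its level in these tumors, so nothing is read from the count.

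The genes whose levels ran closest to each member were found by Pearson's r of log2(value + 1) over the 41 tumors, as a description over libraries that share the named tumors. For Gria2 these were the transcript Pcsk2os2 (r = 0.96), Arhgef15 (0.95), a guanine nucleotide exchange factor of endothelium, Klhl4 (0.95), the scavenger receptor gene Scarf1 (0.95) and the carbonic anhydrase gene Car7 (0.95). All 5 had PLK2null-732, PLK2null-733, PLK2null-743 and PLK2null-7763 above the other 37. Genes picked by r with a member tend to share its high tumors, here and below, so nothing is read from this. For Gap43 they were the endothelial repressor gene Bcl6b (0.91), Kank3 (0.90), Pcdh17 (0.89), Gata2 (0.88) and Fez2 (0.88). In p53null-T11, Bcl6b at 3419, Gata2 at 429 and Fez2 at 1151 exceeded the other 36 tumors, while Kank3 and Pcdh17 did not. For Gria1 they were Zic1 (0.76), the myogenic factor gene Myf5 (0.75), Rufy1 (0.68), Klhl30 (0.68) and Ercc1 (0.68), all highest in p53null-T11, where Myf5 was 1065 against at most 1.20 in the other 36. For Gria3 they were Fxyd1 (0.79), Dpep1 (0.74), Hnmt (0.74), Ggt1 (0.70) and Luzp2 (0.70). For Gria4 they were the somatostatin receptor gene Sstr1 (0.82), Lrfn5 (0.80), Tmem132d (0.80), Th (0.79), which encodes tyrosine hydroxylase, and St6gal2 (0.79). Over the 37 tumors without PLK2null-732, PLK2null-733, PLK2null-743 and PLK2null-7763, r ran from 0.278 to 0.545 for the 5 genes of Gria2 and from 0.658 to 0.741 for those of Gap43.

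Among the members, Gria2 and Gap43 had r = 0.778 over 41 tumors and 0.0700 over the 37 without PLK2null-732, PLK2null-733, PLK2null-743 and PLK2null-7763. Gria3 and Gria4 had r = 0.508 over 41 and 0.521 over the same 37. For Gria1, r over 41 ran from -0.198 with Gria4 to 0.196 with Gap43, and the latter was 0.416 over the same 37 and 0.126 without p53null-T11 as well.

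The genes next to each member on its chromosome were described over the same 28 tumors. In these, 11.1% of all genes had PLK2null-732, PLK2null-733 and PLK2null-743 above the other 25, and 8.87% below. Of 4 tested genes within 1 Mb of Gria2, Fam198b stood above in PLK2null-732, PLK2null-733 and PLK2null-743, at 6266, 7340 and 6379, with 5345 in PLK2null-7763 and 194 to 975 in the other 24. Glrb, the glycine receptor beta subunit gene 40.8 kb away, stood below, at 9.31, 4.79 and 7.91 against 36.1 to 666, as did the growth factor gene Pdgfc, at 187, 143 and 216 against 412 to 2892. Glrb, the nearest tested neighbour, thus went the other way from Gria2. Of 3 tested genes within 1 Mb of Gap43, none stood apart as deposited. The adhesion gene Lsamp, at most 1.69 in the 3 tumors, stood below after rescaling by TMM factors.

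Around Gria4 the picture was the reverse. Of 8 tested neighbours, 6 stood above in PLK2null-732, PLK2null-733 and PLK2null-743 (Cwf19l2, Gucy1a2, Aasdhppt, Kbtbd3, Msantd4 and Casp4) and none below, against 11.1% of genes, with a median difference of 1.55, while Gria4 itself differed by 0.29. Msantd4, 31.0 kb from Gria4, was 3794, 3902 and 4669 in the 3 tumors and 2555 in PLK2null-7763, against 959 to 2055 in the other 24. Casp4, an inflammatory caspase gene, was 1577, 1412 and 2305, against 28.6 to 794. In PLK2null-1964 and PLK2null-7747, where Gria4 was highest and which are among the 24, Msantd4 was 1814 and 1944. Both tumors ranked from 3 to 14 of 41 for the 8 neighbours. PLK2null-7747 was the highest of the 24 for Kbtbd3, at 165 against their median of 43.3. It was also the highest of them for Aasdhppt, at 1135, and for Casp12, at 2151. Of 4 tested neighbours of Gria3, Xiap, which encodes a caspase inhibitor, stood above, at 6858, 7337 and 6183, against at most 3693 in the other 24. Of 15 tested neighbours of Gria1, Gm12247 and Cnot8 stood above, and Cnot8 overlapped after rescaling by TMM factors.

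**Figure D5:**
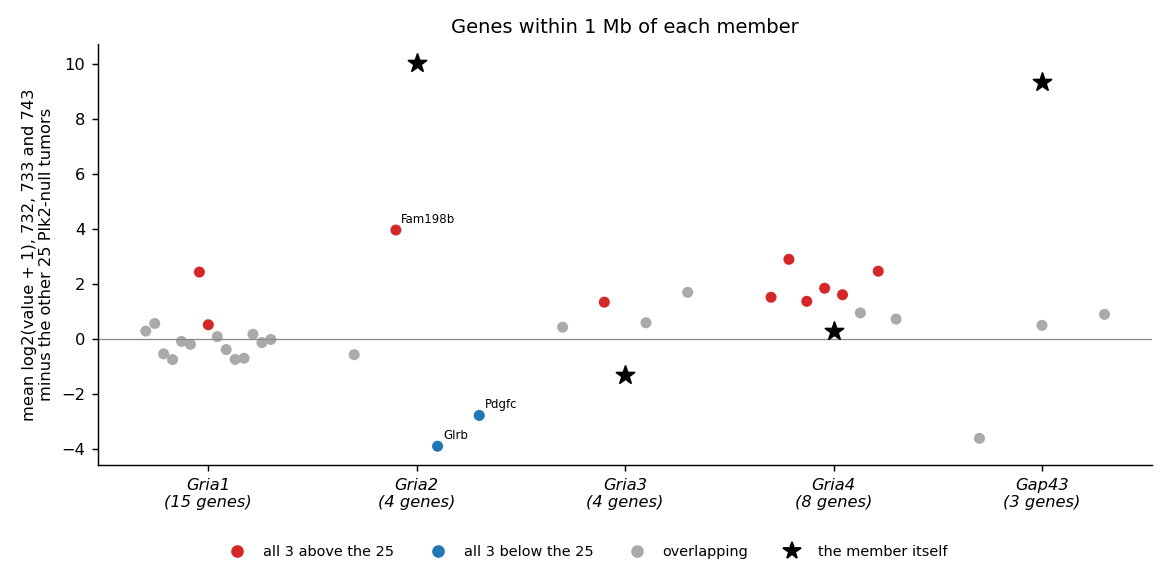
Difference in mean log2(value + 1) between PLK2null-732, PLK2null-733 and PLK2null-743 and the other 25 PLK2null tumors, for each tested gene within 1 Mb of a member (circles, colored where the 3 tumors lie all above or all below the 25) and for the member itself (stars, where tested). Gria2 and Gap43 lie far above their neighbours, while Gria4 (0.29) lies below all 8 of its own.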

How the data were processed

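Total RNA from 41 mammary tumors (28 Plk2-/-; p53-/- and 13 p53-/-) was sequenced as mRNA libraries with paired 50-base reads. The submitters' processing notes name STAR 2.7.6a, Salmon 1.4.0, Picard 2.22.4, SAMtools and the mm10 build. The authors deposited a linear signal per gene, which is Salmon's estimated counts divided by the upper quartile of the tumor; the annotation behind the genes is not given in the sources used here. Columns were matched to tumors by name and genotype was taken from the labels; 0 columns were left over. The authors' upper-quartile scaling fixes 1 point of each tumor's distribution, so a tumor in which few genes dominate shifts the others.

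The members and all lists were chosen with earlier results of these data known. Values were tested as log2(value + 1) where a gene averaged 10 or more, with limma 3.58.1 in R 4.3.3 and Benjamini-Hochberg adjustment over all genes tested (threshold 0.05). Single members were also tested by permutation. Between 73.8 and 80.3% of nonzero values lay within 0.1 of a whole read, so no count model was used. The value of a single read was taken as the most frequent nonzero value of a tumor. Fragment totals, the floor of 3 reads and the chi-squares rest on values divided by it and are estimates. Of all values, 51.5% were 0. The fit was tested on simulated data. Other steps used Python 3.11.15, numpy 2.4.6, pandas 2.3.3, scipy 1.17.1 and matplotlib 3.10.9. Gene positions and exons were read from the GENCODE vM21 annotation (GRCm38), and 95.0% of symbols matched a single gene there; promoters came from RefSeq.

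Genes named were the 5 members, Plk2, the 5 genes with the highest r for each member without predicted genes, up to 4 genes a pathway list that passed the genotype fit or did not overlap, and neighbours that did not overlap. Adarb1, Cpt1c, Dlg2, Grik5, Neto2, Cdk5, Hdac2, Cacng2, Cacng4, Cnih2, Shisa6, Shisa7, Grm4, Slc1a3, Stmn2, L1cam, Sipa1l1, Lsamp and the remaining genes of counts of 5 or fewer, as well as single marker genes, were named after their values were seen. Some genes counted in the lists are not reported here by name. The choices varied were the pseudocount, the filter, limma's trend option, TMM and quantile scaling, fewer tumors, other reference tumors, another gene length and Spearman's rho.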

Additional observations from a re-analysis of the deposited data

How the results depend on the processing

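No setting brought a member past the genotype threshold, in 62 refits of the 5 members under 13 alternatives, 2 of which (without PLK2null-1964 and PLK2null-7747, and without PLK2null-1974) were chosen after seeing the data. Over these refits the limma adjusted p ran from 0.236 to 0.603 for Gria2, 0.339 to 0.929 for Gap43, 0.25 to 0.633 for Gria4, 0.223 to 0.445 for Gria1 and 0.564 to 0.982 for Gria3. The Gap43 difference reversed to -0.11 without PLK2null-732, PLK2null-733 and PLK2null-743 and to -0.42 without these and PLK2null-7763. Gria1 gave no value with a minimum mean of 50 or without T11, and Gria2 none without the 4 tumors. The number of genes called between genotypes stayed within 1.5 times of 6802 in all 13 alternatives, from 5664 with a minimum mean of 50 to 9053 with no filter, and the higher genes were 4175 of 6802 as deposited, 3068 of 6937 after TMM rescaling and 3488 of 6751 after quantile normalization. In PLK2null-732, PLK2null-733 and PLK2null-743 against the other 25, TMM rescaling moved the median of all genes from 0.02 to -0.09, and the difference for Gria2 was 7.39 in place of 10.03 with a pseudocount of 10. Gria3 averaged 38.7 per kb of mean transcript length in place of 13.5 per kb of exon. Of the 5 genes most like each member, Spearman's rho kept 0 for Gria1, 0 for Gria2, 2 for Gria3, 1 for Gria4 and 1 for Gap43, and the 37 tumors without PLK2null-732, PLK2null-733, PLK2null-743 and PLK2null-7763 kept 3, 0, 1, 2 and 0. No paired analysis was possible because the tumor numbers name single tumors and no number is shared between the genotypes. A value of at most 3 reads (1.16 to 2.45 by tumor) was counted as at the floor.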

Other observations

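PLK2null-1974 had Gap43 at 1555, the fourth highest of 41, while Gria2 was 0 there. PLK2null-7763 was the 1 tumor with Gria2, Gria3, Gria4 and Gap43 all above 100, at 898, 595, 304 and 1460.0. It also had the highest Slc1a3 of the 41 tumors, at 18048, and Syt1, a synaptic vesicle gene, at 708, against at most 448 in the other 24 Plk2-/-; p53-/- tumors. p53null-10152 had the highest Gria3, at 916, and the highest Grik3, at 2449, a kainate receptor gene. Grid1, a delta receptor gene, was highest in p53null-T11, at 306, as was Gria1.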
